A study of Mus musculus with 32 samples.

Results

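The CC chemokines and receptors described here are 8 genes picked by name from the 42524 genes of the count table: the ligands Ccl2, Ccl3, Ccl4, Ccl5, Ccl6, Ccl9 and Ccl12 and the receptor Ccr1. All 8 had a row, and they were chosen with earlier results of these data known. The RNA came from the spinal cord of 32 mice, which make 8 groups of 4. WT mice and mice with the SOD1-G93A transgene, a human SOD1 gene with an ALS mutation on a C57BL/6J background, were untreated or given the nitrone compound OKN-007 in drinking water, and the labels give the time as 90 or 155 days, while the study's text states the earlier age slightly differently. Untreated WT, OKN-007-treated WT, untreated G93A and OKN-007-treated G93A mice were present at both times, none of the groups differed by any other labelled agent, and the labels give neither the dose nor the sex of the sequenced mice. The transgene is expressed in many cell types, so the model does not limit the mutant protein to motor neurons. Each library is treated as 1 mouse, and the p-values measure the spread between these libraries.

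Chemokines are small secreted proteins that guide leukocytes and microglia, and the CC class is named for a pair of neighbouring cysteines near the start of the mature protein. They bind G protein-coupled receptors with overlapping preferences. Ccl2 and Ccl12 are ligands of Ccr2 and draw monocytes, Ccl3 and Ccl5 bind Ccr1, Ccl4 is a close relative of Ccl3, and Ccl6 and Ccl9 are rodent ligands of Ccr1. In the central nervous system microglia and border macrophages are well known sources of these ligands.

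The cysteine pair that defines the class is shown for the 7 ligands as the coding bases around it, read from the GENCODE M21 transcripts, with the 2 cysteine codons in capitals and 21 bases on each side.

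Ccl2: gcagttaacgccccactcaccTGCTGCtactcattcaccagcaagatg
Ccl12: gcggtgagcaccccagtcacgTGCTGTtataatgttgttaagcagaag
Ccl3: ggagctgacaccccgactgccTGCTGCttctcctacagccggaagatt
Ccl4: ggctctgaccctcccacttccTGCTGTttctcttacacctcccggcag
Ccl5: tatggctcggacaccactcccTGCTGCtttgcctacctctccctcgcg
Ccl6: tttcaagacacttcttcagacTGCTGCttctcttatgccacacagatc
Ccl9: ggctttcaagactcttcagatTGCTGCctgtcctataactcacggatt

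The pair begins at codon 33 in Ccl5 and Ccl12, at codon 34 in Ccl2, Ccl3 and Ccl4, at codon 50 in Ccl6 and at codon 57 in Ccl9. The longest run of identical transcript bases between a listed ligand and any other CC gene was 30 bases, and Ccl6 and Ccl9 shared at most 25. Ccr1 shared a run of 47 bases with Ccr3, so reads inside that run could belong to either receptor gene. In GENCODE M21 the noncoding gene E230016K23Rik lies on the other strand over Ccl6, and the strand setting of the read counting is not given in the sources used here.

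Between 19701722 and 30138257 reads per library were counted on genes, and 3 counts correspond to 0.0995 to 0.152 CPM (counts scaled to libraries of equal size), depending on the library. Levels are given as CPM scaled with TMM factors, which correct for differences in library composition. The marker genes of neurons, astrocytes, oligodendrocytes and microglia were detected in every group. At 90 days, 4 libraries stood apart on a list of 6 caudal Hox genes (untreated WT mouse 3, treated WT mouse 8 and treated G93A mice 13 and 14, mean log2(CPM + 0.5) between 2.86 and 3.60, against 4.04 to 4.99 in the other 12). At 155 days the score moved with genotype: the 8 G93A mice lay at 2.48 to 4.74 and the 8 WT mice at 4.80 to 5.33, with G93A mice 9, 10, 13 and 16 under 4. The human SOD1 transgene was not analysed here.

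At 155 days all 8 genes were higher in G93A than in WT spinal cord, in untreated mice and again in the OKN-007-treated mice, which share no animal with the untreated ones. Ccl3 and Ccl4 had the steepest differences, Ccl6 the highest level, and Ccr1 the smallest difference. By edgeR's quasi-likelihood test with Benjamini-Hochberg adjustment over 18675 genes, 8 of 8 passed an adjusted p of 0.05 as higher in untreated mice, where 21.3% of all genes did, and 8 of 8 in treated mice, where 23.3% did. The median log2 fold change of the 8 was 3.90 in untreated and 4.28 in treated mice, beside 0.000155 and 0.0181 over all genes tested. The 4 G93A mice lay above the 4 WT mice for each of the 8 genes in both treatments, which held for 17.4% of all genes tested in untreated and 22.6% in treated mice. With both treatments averaged, 8 of 8 passed, beside 28.8% of all genes. Only Ccl6 and Ccl9 had enough counts to pass the filter on low counts in WT mice alone, and the other 6 passed it through the G93A mice. The 8 genes were also chosen with earlier results of these data known. The shares of all genes are therefore a description and not a test of the 8 as a set. Without the 4 G93A mice whose caudal Hox score was under 4, which leaves 2 in each G93A group, 7 of 8 passed in untreated and 7 of 8 in treated mice, Ccr1 being the exception in both, and Ccl3 differed by 6.09 and 6.96. The share of all genes passing in this smaller fit was not computed, so these counts have no background beside them. When the caudal score entered the fit as a covariate, the untreated Ccr1 difference alone no longer passed. The score moved with genotype at this age, so the parts of the 2 cannot be told apart. Because the RNA is from bulk tissue, more cells of a type and more RNA per cell cannot be told apart.

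**Figure D1:**
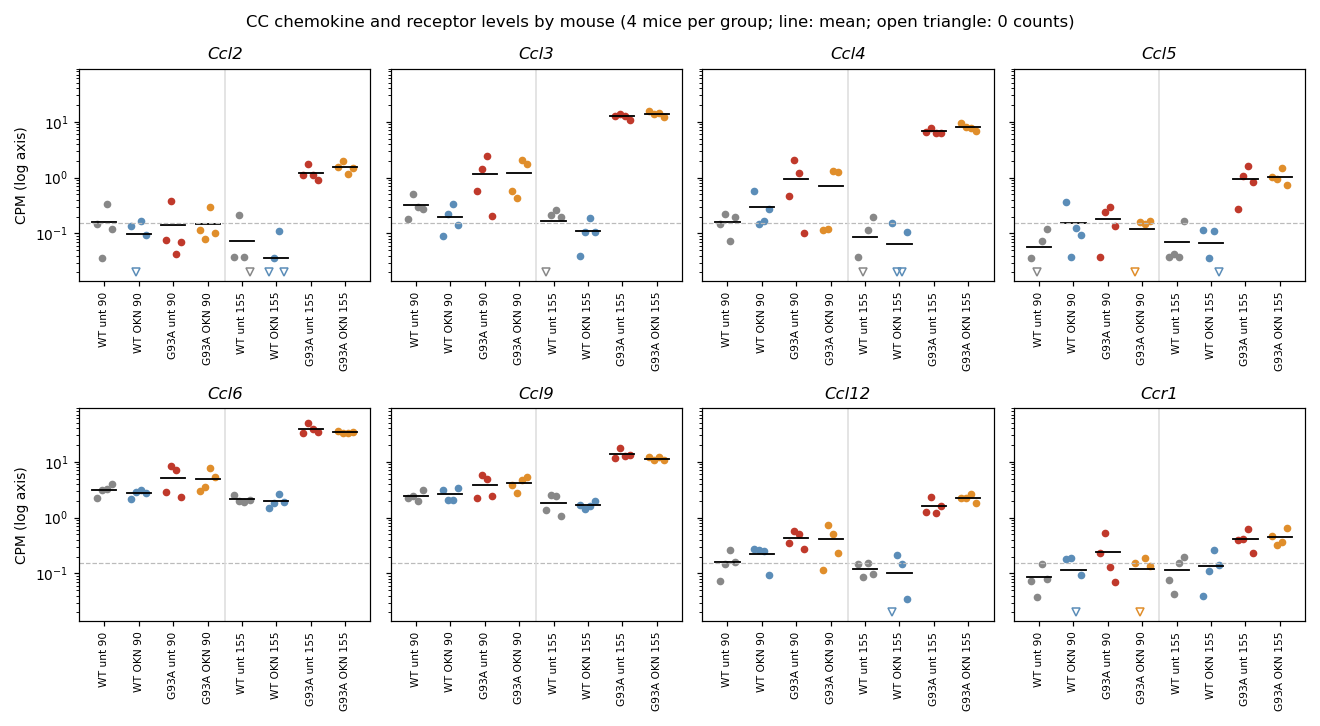
CPM of each gene (log axis) in each of the 32 mice, by group, with 4 mice per group. Black lines are group means, open triangles are mice with 0 counts, drawn at the lower edge, and the dashed line marks 3 counts in the smallest library (0.152 CPM). At 155 days the red and orange points (G93A) lie above the grey and blue points (WT) for each gene when compared within a treatment.

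Ccl3, an inflammatory ligand of Ccr1, was close to the limit of detection in WT mice. In untreated WT mice at 155 days it stood at 0, 0.217, 0.267 and 0.197 CPM, in all 18 counts, and in untreated G93A mice at 12.7, 13.9, 12.5 and 10.9 CPM, in all 1295 counts. Treated WT mice had 0.0388, 0.108, 0.187 and 0.106 CPM and treated G93A mice 15.7, 13.8, 14.6 and 12.3 CPM. The 8 G93A mice thus lay within a narrow band, far above every WT mouse. The log2 fold change was 6.18 (SE 0.28, adjusted p = 1.20e-11, 72.6-fold) in untreated and 6.97 (SE 0.29, adjusted p = 3.88e-12) in treated mice.

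Ccl4, which is closely related to Ccl3, followed the same pattern. Its level was 0.0372, 0, 0.115 and 0.197 CPM in untreated WT mice and 6.68, 7.86, 6.36 and 6.38 CPM in untreated G93A mice. Treated G93A mice had 9.49, 8.06, 7.63 and 6.76 CPM, against at most 0.155 CPM in treated WT mice. The groups did not come near each other. The log2 fold change was 6.14 (SE 0.39, adjusted p = 6.64e-10) untreated and 6.89 (SE 0.41, adjusted p = 2.04e-10) treated, and the WT side of these rests on 10 and 7 counts over 4 mice.

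Ccl6 was the ligand with the most reads. It was at 2.57, 2.0, 1.87 and 2.10 CPM in untreated WT mice and at 33.0, 50.1, 38.7 and 34.2 CPM in untreated G93A mice, a log2 fold change of 4.20 (SE 0.16, adjusted p = 1.20e-12). In treated mice the WT values ran from 1.47 to 2.69 CPM and the G93A values from 32.1 to 35.2 CPM (log2 fold change 4.12, SE 0.16, adjusted p = 1.32e-12). Mouse 10 stood highest among the untreated G93A mice, while the 4 treated G93A mice differed little. Its neighbour Ccl9 differed less: 1.34, 2.56, 2.41 and 1.05 CPM in untreated WT mice against 11.7, 17.6, 12.9 and 13.4 CPM in untreated G93A mice (log2 fold change 2.95, SE 0.21, adjusted p = 2.26e-09). In treated mice the difference was 2.80 (SE 0.21, adjusted p = 3.86e-09). Mouse 10 was again the highest of its group.

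The Ccr2 ligands Ccl2 and Ccl12 were present at much lower counts. Ccl2 was at 0.0372, 0.217, 0.0382 and 0 CPM in untreated WT mice and at 1.13, 1.74, 1.11 and 0.925 CPM in untreated G93A mice, where 27 to 42 counts per mouse were found. Its log2 fold change was 4.12 (SE 0.56, adjusted p = 1.20e-05) untreated and 5.24 (SE 0.60, adjusted p = 1.16e-06) treated. Only 7 counts in untreated and 4 in treated WT mice enter these ratios, so their size is imprecise although the groups are well apart. Ccl12 was at 0.149, 0.0868, 0.153 and 0.0984 CPM in untreated WT mice and at 1.25, 2.36, 1.23 and 1.59 CPM in untreated G93A mice. The log2 fold change was 3.68 (SE 0.43, adjusted p = 1.59e-06) untreated and 4.43 (SE 0.43, adjusted p = 1.27e-07) treated.

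Ccl5, a ligand of Ccr1 that T cells also make, varied more between G93A mice than the other ligands. It was at 0.0372, 0.0434, 0.0382 and 0.164 CPM in untreated WT mice and at 0.273, 1.08, 1.64 and 0.826 CPM in untreated G93A mice. Mouse 9 was the low one, with 7 counts against 25 to 40 in the other 3, and it still lay above the highest WT mouse. The log2 fold change was 3.61 (SE 0.61, adjusted p = 1.20e-04) untreated and 3.96 (SE 0.61, adjusted p = 4.03e-05) treated.

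Ccr1, the only receptor among the 8, rose least. Untreated WT mice had 0.0745, 0.0434, 0.153 and 0.197 CPM and untreated G93A mice 0.391, 0.414, 0.615 and 0.231 CPM, in counts 1 to 6 against 7 to 15 per mouse. In treated mice the ranges were 0.0388 to 0.261 CPM in WT and 0.327 to 0.651 CPM in G93A. The groups separated by a small gap within each treatment. The log2 fold change was 1.73 (SE 0.50, adjusted p = 0.00952) untreated and 1.72 (SE 0.48, adjusted p = 0.00688) treated. When the score of the caudal Hox list entered the fit, the untreated difference was 1.63 (adjusted p = 0.0550) and no longer passed. Without the 4 G93A mice of low score it was 1.76 (adjusted p = 0.0575) in untreated and 1.33 (adjusted p = 0.143) in treated mice.

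**Figure D2:**
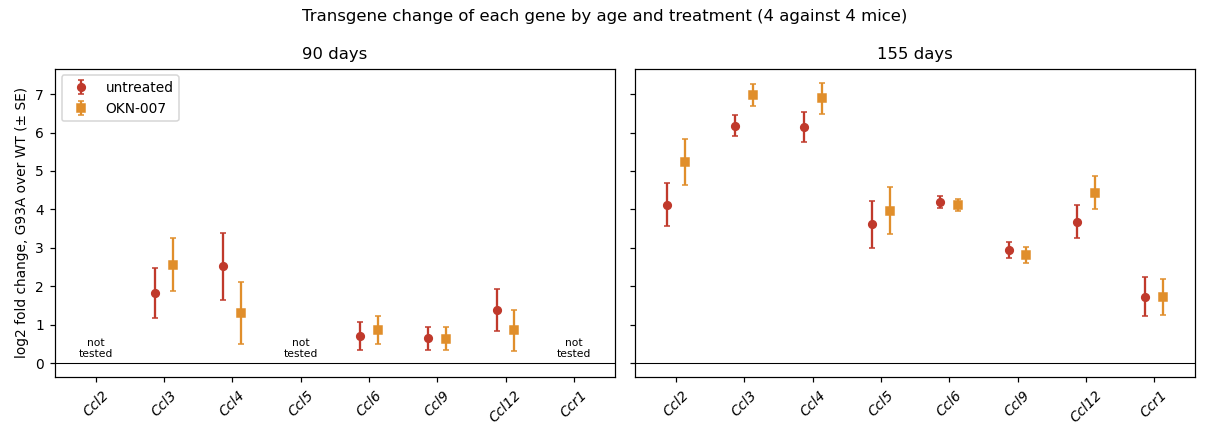
Log2 fold change of G93A over WT (± SE) for each gene at 90 days (left) and 155 days (right), in untreated (red circles) and OKN-007-treated mice (orange squares), 4 against 4 mice each. The points at 155 days run from 1.72 (Ccr1, treated) to 6.97 (Ccl3, treated), and at 90 days Ccl2, Ccl5 and Ccr1 were not tested.

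Levels of different genes are compared only after division by exon length, as RPKM (CPM per kilobase of exon). In untreated G93A mice at 155 days the order was Ccl6 at 21.7 ± 4.34 RPKM (SD, n = 4), Ccl3 at 16.3 ± 1.63, Ccl4 at 10.3 ± 1.07, Ccl9 at 4.56 ± 0.838, Ccl12 at 2.99 ± 0.981, Ccl2 at 1.08 ± 0.310, Ccl5 at 0.994 ± 0.591 and Ccr1 at 0.146 ± 0.0556 RPKM. Most neighbours in that order had ranges that did not meet. The exceptions were Ccl9 and Ccl12, where the lowest Ccl9 value (3.85 RPKM) was below the highest Ccl12 value (4.39 RPKM), and Ccl2 and Ccl5, whose ranges lay across each other. In untreated WT mice at 155 days Ccl6 (1.19 ± 0.170 RPKM) and Ccl9 (0.604 ± 0.248 RPKM) came first, and Ccl3 was at 0.222 ± 0.153 RPKM. By the means on this scale Ccl3 and Ccl4 stood above Ccl9 in untreated G93A and below it in untreated WT mice. In these WT mice the highest Ccl3 value (0.349 RPKM) was just above the lowest Ccl9 value (0.345 RPKM). Ccl3 rests there on 0 to 7 counts per mouse.

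The rest of the CC family was covered by a list of 31 further genes, of which 28 had a row and 9 had enough counts to be tested at 155 days. In untreated mice 3 of the 9 were higher in G93A and 1 lower, beside 21.3% and 18.2% of all genes. In treated mice 2 of the 9 were higher and 3 lower, beside 23.3% and 18.2% of all genes. The 2 of 9 lies near its share. With both treatments averaged, 4 of the 9 were higher and 3 lower, beside 28.8% and 25.8% of all genes. Ccl7, another monocyte-attracting Ccr2 ligand, was higher in both (log2 fold change 2.48, SE 0.74, adjusted p = 0.0115 untreated and 2.57, SE 0.70, adjusted p = 0.00628 treated).

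Ccrl2, a chemerin-binding receptor relative, passed in untreated mice (1.22, SE 0.32, adjusted p = 0.00454) and not in treated mice (0.59, SE 0.32, adjusted p = 0.150), and the genotype by treatment difference of these did not pass (−0.63, SE 0.45, adjusted p = 1.0). Ackr1, an atypical receptor of venular endothelium and red cells that binds chemokines without signalling, was lower in both treatments (−0.42 and −0.56, adjusted p = 0.00514 and 3.92e-04). Ccl25 (−0.28) and Ccl27a (−0.26) were lower in treated mice, with adjusted p of 0.0186 and 0.0266. Neither passed in untreated mice, where the G93A means were also lower (12.6 against 13.4 CPM for Ccl25, 29.6 against 32.3 CPM for Ccl27a). Their genotype by treatment differences did not pass. Ccr2, the receptor of Ccl2 and Ccl12, did not pass in either treatment alone (1.52, SE 0.60, adjusted p = 0.0519 and 0.85, SE 0.55, adjusted p = 0.228), at 0.117 to 0.703 CPM in untreated G93A mice. With both treatments averaged, Ccr2 passed as higher, on 3 to 17 counts per mouse in untreated G93A mice. Per exon length, Ccr2 was at 0.0541 ± 0.0378 RPKM (SD, n = 4) in untreated G93A mice, and its highest value (0.104 RPKM) was above the lowest of Ccr1 (0.0817 RPKM).

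**Figure D3:**
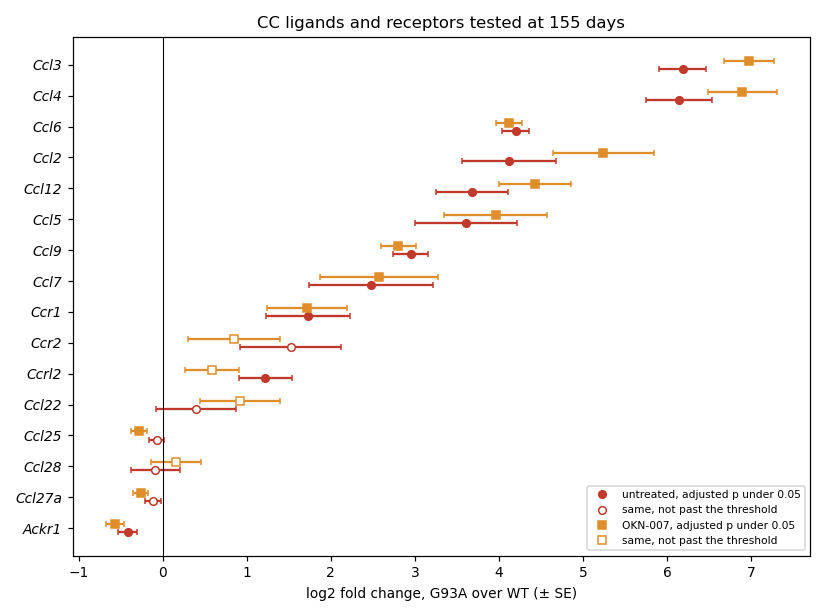
Log2 fold change of G93A over WT (± SE) at 155 days for the 8 genes and further CC family genes tested, in untreated (red circles) and OKN-007-treated mice (orange squares). Filled symbols passed an adjusted p of 0.05. The 7 ligands Ccl2, Ccl3, Ccl4, Ccl5, Ccl6, Ccl9 and Ccl12 occupy the upper end, from 2.80 to 6.97, and Ackr1 the lower end.

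Markers of several cell types moved with the same groups at 155 days, and their part in the chemokine differences was not tested. All 10 microglia markers (Tmem119, P2ry12, Cx3cr1 and others) passed as higher in both treatments, their sum running from 335 to 411 CPM in untreated WT and from 1195 to 1942 CPM in untreated G93A mice. The 10 genes of activated microglia passed as well, with sums of 2906 to 4037 CPM in WT and 11823 to 26738 CPM in G93A mice, and a median log2 fold change of 4.31. The median log2 fold change of the microglia list was 1.92. All 6 astrocyte markers passed as higher in untreated and 5 of 6 in treated mice, all 5 spinal cord neuron markers passed as lower in both, and the 3 oligodendrocyte markers passed in neither. Of 4 endothelial markers, 0 passed in untreated and 2 as lower in treated mice. Neutrophil markers did not pass (0 of 2 tested). Of 6 monocyte and border macrophage markers tested, Ms4a7 (5.25, SE 0.53) and Pf4 (1.39, SE 0.40) passed in untreated mice. Ccr2 (1.52), Mrc1 (0.52), Cd163 (0.31) and F13a1 (0.22) did not. In treated mice 3 of the 6 passed as higher. This list summed to 6.94 to 11.6 CPM in untreated G93A mice against 4.10 to 4.69 CPM in untreated WT mice. Of 3 T and NK cell markers tested, Cd3g (2.36, SE 0.43) and Cd8a (2.61, SE 0.64) passed in untreated mice, and Trbc2 did not (−0.10, SE 0.56). In treated mice 2 of the 3 passed as higher. The T and NK cell list summed to 1.95 to 2.36 CPM in untreated G93A mice against 0.596 to 1.34 CPM in untreated WT mice.

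At 90 days none of the 8 genes passed the test, and Ccl3 had the largest difference with both treatments averaged. Of the 8 genes, 5 had enough counts to be tested (Ccl3, Ccl4, Ccl6, Ccl9 and Ccl12), and only Ccl6 and Ccl9 among them would have been kept from the WT mice alone. Ccl2, Ccl5 and Ccr1 were at 0 to 9, 0 to 8 and 0 to 11 counts per mouse over all 16 mice. None of the 5 was called in untreated mice, in treated mice or with both treatments averaged (8 against 8 mice), where 0%, 0% and 0.0265% of all 18899 genes were. At an unadjusted p under 0.05 there were 1126, 747 and 1250 of all 18899 genes in these comparisons. Of the 5 genes, 4, 3 and 5 were among them.

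In untreated G93A mice 9 to 12 Ccl3 was at 0.576, 1.44, 2.4 and 0.206 CPM, against 0.184 to 0.518 CPM in untreated WT mice. In treated G93A mice 13 to 16 it was at 0.580, 0.433, 2.03 and 1.72 CPM, against 0.0898 to 0.335 CPM in treated WT mice. Mice 10, 11, 15 and 16 were the high ones, and mouse 12 lay inside the WT range. With both treatments averaged the log2 fold change was 2.19 (SE 0.48, unadjusted p = 2.08e-04, adjusted p = 0.137). The treated groups did not overlap (log2 fold change 2.56, SE 0.70, adjusted p = 1.0), which held for 1.58% of all genes, and the untreated groups did overlap for Ccl3 but not for Ccl12, where 1.19% of all genes did not. The averaged Ccl3 difference passed under several other settings: DESeq2 (adjusted p = 0.00282), edgeR's likelihood ratio test (0.00283), no filter (3.58e-04), all 32 mice in one fit (0.0146), the caudal Hox covariate (0.0383), and without untreated G93A mouse 12 (0.0230). It did not pass with RLE factors (2.19, adjusted p = 0.142), without the 4 mice that stood apart on the Hox list (2.43, adjusted p = 0.234), or in the other 15 fits that left out 1 mouse (adjusted p up to 0.337).

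The same 4 mice were the highest G93A mice for Ccl4, Ccl6 and Ccl9, but not for Ccl12. Ccl6 was at 2.84, 8.23, 7.13 and 2.30 CPM in untreated and at 2.98, 3.51, 7.64 and 5.36 CPM in treated G93A mice, and the 8 WT mice ran from 2.16 to 4.04 CPM. Ccl4 was at 0.461, 2.07, 1.2 and 0.103 CPM in untreated and at 0.116, 0.118, 1.33 and 1.28 CPM in treated G93A mice, with WT mice between 0.0744 and 0.584 CPM. Some G93A mice lay well above, and others within, the WT range for both genes. For Ccl12 mouse 14 was highest (0.748 CPM), and mouse 16 (0.236 CPM) lay inside the WT range of 0.0736 to 0.269 CPM. Ccl9 was at 2.23, 5.68, 4.98 and 2.48 CPM in untreated and at 3.75, 2.72, 4.65 and 5.36 CPM in treated G93A mice. The averaged log2 fold changes were 1.91 (SE 0.60, adjusted p = 0.433) for Ccl4, 0.78 (SE 0.26, adjusted p = 0.511) for Ccl6, 0.64 (SE 0.21, adjusted p = 0.508) for Ccl9 and 1.11 (SE 0.38, adjusted p = 0.551) for Ccl12. The mean log2(CPM + 0.5) of the 10 activated microglia genes in G93A mice 9 to 16 was 3.83, 4.64, 4.68, 3.63, 3.69, 3.92, 4.48 and 4.55, against 3.47 to 3.75 in the WT mice. The caudal Hox score of the same mice was 4.64, 4.82, 4.66, 4.04, 2.86, 2.87, 4.76 and 4.99. Both scores move with the ligand levels in part, and neither was tested as their source.

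**Figure D4:**
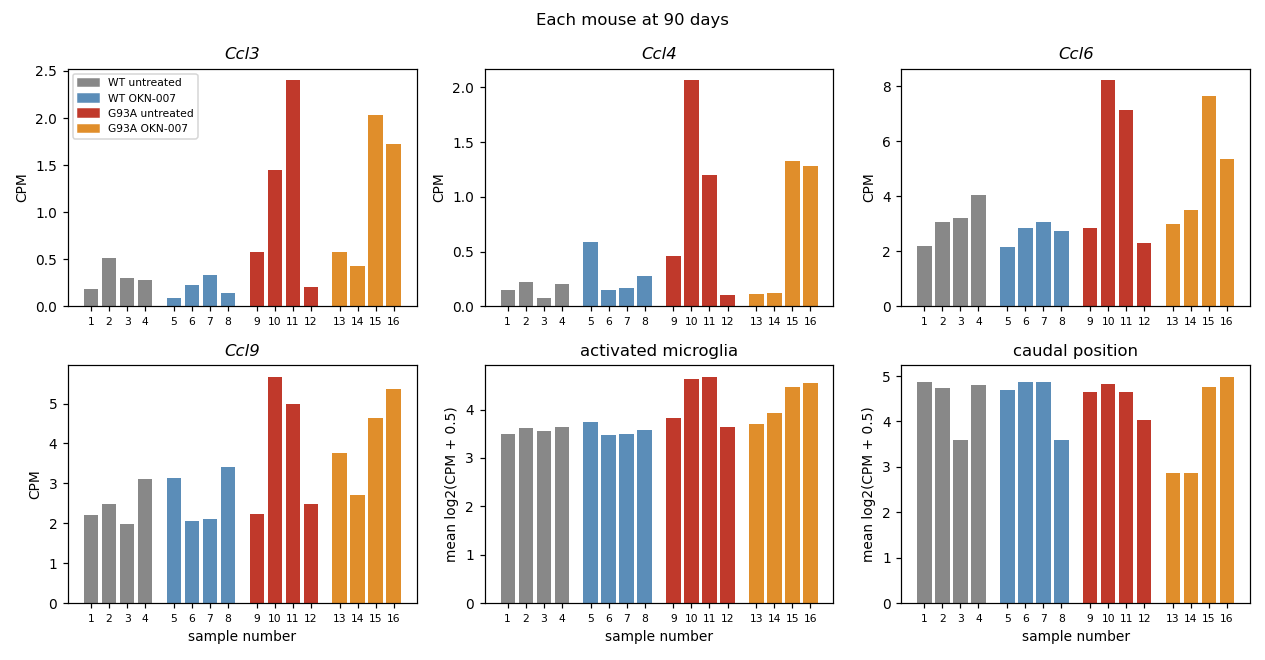
Ccl3, Ccl4, Ccl6 and Ccl9 (CPM), and the mean log2(CPM + 0.5) of the activated microglia and caudal position lists, in each of the 16 mice at 90 days, 1 bar per mouse, coloured by group and numbered as in the labels. Mice 10, 11, 15 and 16 show the 4 highest bars for Ccl3, at 1.44 to 2.4 CPM, and for the activated microglia list.

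The transgene difference was larger at 155 than at 90 days for most of the genes. Only Ccl6 and Ccl9 would pass the filter on low counts of this fit in WT mice alone, so the other 6 were tested because of their level in G93A mice, and Ccl2, Ccl5 and Ccr1 were too low to be tested at 90 days. In the fit of all 32 mice over 19829 genes, the difference between ages of the untreated G93A change passed as higher for 6 of 8 genes, beside 12.9% of all genes: Ccl2 (4.33), Ccl3 (4.38), Ccl4 (3.64), Ccl6 (3.5), Ccl9 (2.29) and Ccl12 (2.30). It did not pass for Ccl5 (2.06, SE 1.23, adjusted p = 0.248) or Ccr1 (0.34, SE 1.03, adjusted p = 0.854). In treated mice 7 of 8 passed, beside 13% of all genes, Ccl5 among them (4.24, SE 1.07, adjusted p = 0.00439), and Ccr1 did not (1.64, SE 0.97, adjusted p = 0.241). Some of these calls sit near the threshold and are lost without 1 mouse. Untreated Ccl4 was lost without untreated WT mouse 1, 2 or 4 at 90 days or mouse 1 or 2 at 155 days (3.30 to 3.68, adjusted p 0.0502 to 0.0663). Untreated Ccl12 was lost without untreated WT mouse 3 or G93A mouse 12 at 90 days or G93A mouse 10 at 155 days (1.97 to 2.13, adjusted p 0.0545 to 0.0999), and treated Ccl5 without treated WT mouse 5 at 90 days (3.43, adjusted p = 0.0504).

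Within untreated G93A mice, 7 of 8 genes were higher at 155 than at 90 days, beside 21% of all genes, and Ccr1 was not called (0.82, SE 0.58, adjusted p = 0.295). The log2 fold changes of the 7 ran from 1.87 (Ccl9) to 3.47 (Ccl3). Ccl3 went from 0.206 to 2.4 CPM at 90 days to 10.9 to 13.9 CPM at 155 days, and Ccl6 from 2.30 to 8.23 CPM to 33.0 to 50.1 CPM. In untreated WT mice 0 of 8 passed, with log2 fold changes from −1.2 (Ccl2) to 0.48 (Ccr1) and 0 at an unadjusted p under 0.05, beside 24.9% of all genes in either direction. Only Ccl6 and Ccl9 have enough counts in WT mice alone to pass the filter. The others are so low that a change could hardly be detected, as for Ccl2 with 17 counts at 90 and 7 at 155 days. Their lack of a call therefore does not show a stable level. The labels give no sequencing batch, so a batch shared by all mice of 1 time and the time itself cannot be told apart in these comparisons.

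OKN-007 was not followed by a called difference in any of the genes tested. All 8 were tested at 155 days, but only 5 at 90 days, where Ccl2, Ccl5 and Ccr1 were too low. In G93A mice and in WT mice, at 90 and at 155 days, and in the genotype by treatment terms, 0 members passed and 0% of all genes did. At an unadjusted p under 0.05 there were 1050 genes in G93A and 769 in WT mice at 90 days, and 755 and 549 at 155 days, and none of the members among them. At 155 days the treated G93A mice differed from untreated ones by 0.18 in Ccl3 (95% interval −0.15 to 0.52), 0.24 in Ccl4 (−0.22 to 0.70), −0.20 in Ccl6 (−0.45 to 0.04) and −0.27 in Ccl9 (−0.62 to 0.08) on the log2 scale. These 4 ligands had the most counts and the narrowest intervals. The intervals were wider for Ccl12 (0.48, −0.11 to 1.07), Ccl2 (0.33, −0.40 to 1.06), Ccl5 (0.16, −0.67 to 0.98) and Ccr1 (0.16, −0.64 to 0.96). At 90 days the treated minus untreated G93A values ran from −0.38 (Ccl4) to 0.11 (Ccl9), with intervals as wide as −1.81 to 1.05 for Ccl4, so a sizeable effect in either direction was not detectable there. In WT mice at 155 days the difference was −0.12 (−0.49 to 0.24) in Ccl6. For Ccl2, with 7 untreated and 4 treated counts, it was −0.79 (−2.68 to 1.10).

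Among the 8 G93A mice at 155 days the genes were compared with one another and with the summed microglia list on log2(CPM + 0.5). Of 36 pairs, 0 passed after Benjamini-Hochberg adjustment (smallest adjusted p = 0.157, exact permutation test, two-sided), 3 had an unadjusted p under 0.05, and 33 had a positive r. Ccl3 and Ccl4 gave Pearson's r = 0.893 (exact permutation p = 0.00437) and Spearman's rho = 0.786 (exact permutation p = 0.0279), with r = 0.848 after the 2 mice farthest from the median of Ccl3 were left out. Ccl6 and Ccl9 gave r = 0.916 (exact permutation p = 0.00918, adjusted 0.165) and rho = 0.786, and r fell to 0.536 without the 2 farthest mice, so that relation rests on them.

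Over all 32 mice, which share the genotype and age groups and differ in depth, the genes most like each member were found by Pearson's r of log2(CPM + 0.5) over 19829 genes, as a description. Mmp12, a macrophage metalloproteinase, came first for Ccl3 (r = 0.992) and Ccl4 (0.986), followed by the integrin Itgax and Fcrls for Ccl3 and the lectin receptor Clec7a and Timp1 for Ccl4. Itgax came first for Ccl6 (0.989), then Fcrls and Ccl3, and Clec7a first for Ccl9 (0.969), then Myo1f and Irf8. The lower-count genes had lower values. Cd48 was first for Ccl2 (0.968), before Apobec1 and Pik3ap1, Irak4 for Ccl12 (0.960), before Ggta1 and Nckap1l, and Mylk for Ccl5 (0.950), before Nupr1 and Il17ra. Ccr1 had the loosest match, Clec12a at 0.882, before AC166110.3 and Ccnb1.

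The 7 ligand genes lie on chromosome 11, Ccl2 and Ccl12 at one end and Ccl5, Ccl9, Ccl6, Ccl3 and Ccl4 at the other. The annotation places 62 further genes of the table among and beside them, of which 35 were tested at 155 days. Of these 35, 13 passed as higher in G93A in both treatments, 2 as lower in both (Tmem132e and Gm12576), and 20 did not pass in the same direction in both. Over all genes tested, 18.9% passed as higher and 14.2% as lower in both treatments. Among the higher ones were Ccl7, the Schlafen family genes Slfn2, Slfn5, Slfn8, Slfn9 and Slfn10-ps, and Gm11423, Gm11425, Rffl, AI662270, Mmp28 and Wfdc17. Wfdc17, the next tested gene beyond Ccl4, had a log2 fold change of 5.52 (SE 0.59) in untreated mice, while Wfdc18, the next tested gene after it, was at −0.43 (SE 0.37). The differences thus changed from gene to gene along the cluster.

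**Figure D5:**
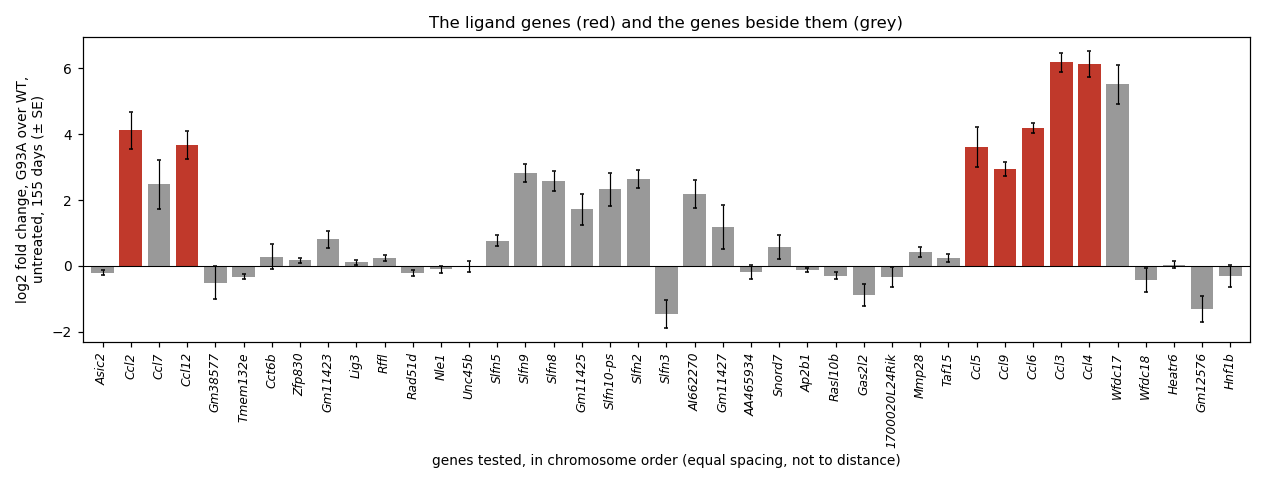
Log2 fold change of G93A over WT (± SE) in untreated mice at 155 days for the 7 ligand genes (red) and other genes tested beside them (grey), in chromosome order with equal spacing. The red bars stand at 2.95 to 6.18. The grey bars range widely, from below 0 through Slfn9 at 2.83 to Wfdc17 at 5.52.

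Because these genes were higher together, their promoters were searched for 6 short motifs on both strands, from 250 bases before to 50 after the start. RefSeq promoters (GRCm38.p6) were present for Ccl3, Ccl6, Ccl9, Ccl12 and Ccr1. The motifs were GGNNTTTCC (NF-kB type), TGANTCA (AP-1 type), TTCNNNGAA (STAT type), GAGGAA (PU.1 type), TTGCNNAA (C/EBP type) and GAAANNGAA (IRF type), found in 5.82%, 7.81%, 8.30%, 28.3%, 10.8% and 8.56% of 32851 promoters of that length. Among the 5, Ccl9 held the NF-kB and AP-1 type motifs, Ccl3 the IRF type and an overlapping PU.1 type motif, and Ccl12 and Ccr1 the PU.1 type motif. Ccl6 held none of the 6, and the STAT and C/EBP type motifs were in none of the 5. The 250 bases before the start are shown for the 4 genes with a match, matches in capitals, for Ccl3 at chr11:83649379-83649628 (minus strand), Ccl9 at chr11:83578637-83578886 (minus), Ccl12 at chr11:82101595-82101844 (plus) and Ccr1 at chr9:123968693-123968942 (minus).

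Ccl3: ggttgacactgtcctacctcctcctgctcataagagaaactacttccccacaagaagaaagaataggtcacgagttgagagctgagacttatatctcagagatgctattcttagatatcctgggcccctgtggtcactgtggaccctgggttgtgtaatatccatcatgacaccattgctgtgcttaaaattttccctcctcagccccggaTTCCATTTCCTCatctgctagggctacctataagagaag
Ccl9: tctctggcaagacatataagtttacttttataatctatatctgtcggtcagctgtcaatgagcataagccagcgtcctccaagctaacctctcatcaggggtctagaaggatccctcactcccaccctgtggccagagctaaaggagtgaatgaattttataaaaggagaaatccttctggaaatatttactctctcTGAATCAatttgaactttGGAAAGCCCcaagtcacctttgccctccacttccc
Ccl12: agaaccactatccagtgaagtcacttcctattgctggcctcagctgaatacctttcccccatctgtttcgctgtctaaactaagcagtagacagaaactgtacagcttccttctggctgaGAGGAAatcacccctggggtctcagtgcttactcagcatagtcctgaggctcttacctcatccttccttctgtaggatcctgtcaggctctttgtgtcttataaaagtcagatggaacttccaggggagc
Ccr1: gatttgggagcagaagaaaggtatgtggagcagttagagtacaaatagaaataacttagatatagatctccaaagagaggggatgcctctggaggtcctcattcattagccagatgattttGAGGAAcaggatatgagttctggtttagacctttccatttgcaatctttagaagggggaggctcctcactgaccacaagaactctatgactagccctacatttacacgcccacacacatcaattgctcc

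Counting from the start, the AP-1 type match of Ccl9 begins at −53 and its NF-kB type match at −35, and the overlapping IRF and PU.1 type matches of Ccl3 begin at −39 and −33. In Ccl12 and Ccr1 the PU.1 type match lies further out, at −130 and −129. A match is a description of letters in this window and not a measured binding site.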

How the data were processed

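Polyadenylated RNA of mouse spinal cord was sequenced from 32 mice, and the authors deposited 1 table of raw read counts per gene, with no normalization. The submitters' processing notes name FastQC, STAR, featureCounts and edgeR and the builds hg38, GRCm39 and mm39, while the study's methods describe another genome build and another counting tool, so the build behind the counts is uncertain. Gene symbols came from GENCODE M21 for 41218 of 42524 genes (96.9%), and 1306 gene identifiers are newer than that annotation. From the deposited counts, CPM with TMM factors and tests were computed in R 4.3.3 with edgeR 4.0.16 (filterByExpr, quasi-likelihood F test, two-sided, Benjamini-Hochberg over all genes tested, adjusted p under 0.05). The 16 mice of an age were fitted as 4 groups, and all 32 mice as 8 groups for comparisons between ages. The SE of a log2 fold change was derived as its absolute value divided by the square root of the F statistic. Intervals are approximate 95% normal intervals from this SE. RPKM used the total exon length. Counting intervals and the floor of 3 counts cover counting error only.

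The 8 genes, the gene lists and the tests were chosen with earlier results of these data known. Named beside the 8 genes were CC family genes that passed a test or are their receptors, genes beside them on the chromosome that passed at 155 days in both treatments, and the 3 genes with the most similar pattern. Some of these genes are counted but not reported by name here. Wfdc18 was named after its value was seen. The tests were checked on simulated counts. No 2 libraries held identical values. The alternatives tried were RLE factors, DESeq2 1.42.0, a likelihood ratio test, other filters, other sets of mice in the fit, a fold threshold, a caudal Hox covariate, a replicate block and leaving out each mouse.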

Additional observations from a re-analysis of the deposited data

Results flagged for a closer look

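In 4 of 64 sets of 4 mice, 1 mouse lay far from the other 3, and chance gives about 1 in 20 such sets. Ccl2 was at 0.385 CPM in untreated G93A mouse 10 at 90 days, above the rest of its group. Ccl5 was at 0 CPM in treated G93A mouse 13 at 90 days and at 0.164 CPM in untreated WT mouse 4 at 155 days. Ccl12 was at 0.0932 CPM in treated WT mouse 8 at 90 days, the lowest of its group. All 4 values rest on few counts.

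The G93A difference changed between 90 and 155 days, by the test of the difference itself, in 13 of 16 cases. Over all genes, 12.9% passed as higher in untreated and 13% in treated mice. Only Ccl6 and Ccl9 pass the filter on low counts of this fit in WT mice alone. The calls of untreated Ccl4, untreated Ccl12 and treated Ccl5 can be lost without 1 mouse. In untreated mice the log2 difference grew by 4.33 in Ccl2, 4.38 in Ccl3, 3.64 in Ccl4, 3.5 in Ccl6, 2.29 in Ccl9 and 2.30 in Ccl12. In treated mice it grew by 4.60 in Ccl2, 4.38 in Ccl3, 5.54 in Ccl4, 4.24 in Ccl5, 3.23 in Ccl6, 2.13 in Ccl9 and 3.55 in Ccl12.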

How the results depend on the processing

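Of 596 values under alternatives other than leaving out 1 mouse, 570 were classed as unchanged, and of 888 values with 1 mouse left out, 856 were. A fold change was so classed if it kept its direction and side of the threshold. Counts of passing genes were allowed a small change, and levels a change within their SD. An unchanged count can therefore hide a lost call. At 155 days all 8 genes passed without any 1 mouse. With at least 10 counts required in every mouse, only Ccl6 and Ccl9 were tested there, and 2 of 2 passed in untreated mice, treated mice and both. At 90 days with both treatments averaged, the count of 0 became 1 under DESeq2, the likelihood ratio test, the caudal covariate and all 32 mice in one fit, and 3 with no filter (Ccl3, Ccl4 and Ccl6). Leaving out 1 mouse gave 0 to 1. In treated mice at 90 days 1 gene passed with no filter (Ccl3). The cause was not tested. The shares of all genes passing under the settings of this section are not given here. Its counts of passing genes therefore do not show whether the 8 genes stand out.

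The treated minus untreated difference in G93A mice at 90 days turned positive for Ccl4 (0.078) and Ccl6 (0.17) with the caudal covariate, and was 0.48 and 0.36 without the 4 mice of low caudal score, an alternative chosen after seeing the data. Leaving out 1 mouse, it ran from −0.31 to 0.74 (Ccl3), −0.85 to 0.32 (Ccl4), −0.36 to 0.27 (Ccl6), −0.072 to 0.37 (Ccl9) and −0.53 to 0.23 (Ccl12). At 155 days, without the 4 G93A mice of low caudal score (also chosen after seeing the data), it was −0.010 for Ccl5 and −0.25 for Ccr1. Leaving out 1 mouse, it ran from −0.16 to 0.54 (Ccl5) and −0.049 to 0.41 (Ccr1). The untreated genotype by age term of Ccr1 ran from −0.061 to 1.04.

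Sample numbers are shared by the ages, but nothing says that they pair mice. Of 16 same-number pairs, 3 correlated above 0.1 (r from −0.219 to 0.214) and 3 mice correlated best with their own number. With the number as a replicate block, 6 and 7 genes passed in the genotype by age terms, 7 for age in untreated G93A and 0 in untreated WT mice, the counts found without it. Depth limits Ccl2, Ccl5 and Ccr1 at 90 days and the WT side of most ratios.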
